A study of Mus musculus with 2 samples.

Results

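The regions described here are the wide HIRA peaks of the embryonic mouse heart. They were selected on their width alone: a peak of the deposited list was taken when it spanned 250 bases or more, which gave 746 of 6624 peaks (11.3%). The other 5878 peaks are called narrower peaks below. The list came from 1 chromatin immunoprecipitation (ChIP) library made with the WC15 antibody against HIRA, set against 1 input library. Both were from wild type CD1 hearts at the E12.5 stage, 30 of which were pooled, and no genotype or treatment was compared. With 1 library there was no replicate, so peaks were the only units that could be counted, and every interval below covers counting error only.

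HIRA is a histone chaperone. With its partners UBN1, CABIN1 and ASF1a it places the histone variant H3.3 into chromatin outside DNA replication, at active genes and at some regulatory regions. A peak is a stretch of genome over which more ChIP fragments than input fragments were counted. Much of a mammalian genome is repetitive, in forms that include short-unit microsatellites, longer-unit minisatellites and satellites repeated head to tail, and interspersed elements copied to many places. A read from such sequence can align equally well to several positions, and an assembly can hold fewer copies than the cells do.

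The first set of sequences shows tandem arrays with a longer repeat unit, a type called in 24.4% of wide and 4.44% of narrower peaks. The sequences are read 5′ to 3′ on the plus strand of mm10. Each line is the start of a peak, and the capitals mark the first copy of the repeat unit.
Ankrd44 intron, chr1:54820746-54820829: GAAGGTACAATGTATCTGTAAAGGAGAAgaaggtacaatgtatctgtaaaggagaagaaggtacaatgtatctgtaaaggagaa
Arid1b intron, chr17:5158607-5158744: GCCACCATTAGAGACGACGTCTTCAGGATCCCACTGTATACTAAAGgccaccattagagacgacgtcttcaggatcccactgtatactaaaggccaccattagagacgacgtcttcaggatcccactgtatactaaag
Syne1 intron, chr10:5081598-5081744: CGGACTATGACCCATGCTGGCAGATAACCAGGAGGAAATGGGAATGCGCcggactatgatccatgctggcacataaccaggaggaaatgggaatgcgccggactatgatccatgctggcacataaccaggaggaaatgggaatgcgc
Cul5 intron, chr9:53649561-53649671: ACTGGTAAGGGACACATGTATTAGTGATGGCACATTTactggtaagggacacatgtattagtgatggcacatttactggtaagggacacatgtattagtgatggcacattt
Start of chromosome 9, chr9:3034387-3034650: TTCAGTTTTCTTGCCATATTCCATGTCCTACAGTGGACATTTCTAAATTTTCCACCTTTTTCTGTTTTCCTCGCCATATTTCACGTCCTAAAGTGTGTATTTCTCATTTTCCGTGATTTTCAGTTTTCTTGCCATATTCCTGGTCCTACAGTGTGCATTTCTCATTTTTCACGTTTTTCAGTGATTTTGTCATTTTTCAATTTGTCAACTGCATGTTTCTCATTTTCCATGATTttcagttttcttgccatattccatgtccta

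The next set shows repeats of other types. The first line is the start of a peak beside Cacna2d1, with 1 unit of its short repeat in capitals. The other lines come from the largest groups of wide peaks with shared sequence, and their capitals mark the 32-base word that the most members of the group held.
Cacna2d1 flank, chr5:16376973-16377032: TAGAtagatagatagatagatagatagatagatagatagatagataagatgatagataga
Largest group, chr11:18707460-18707531: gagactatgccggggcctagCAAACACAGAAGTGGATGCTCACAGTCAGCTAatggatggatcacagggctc
Second largest group, chr16:51489263-51489334: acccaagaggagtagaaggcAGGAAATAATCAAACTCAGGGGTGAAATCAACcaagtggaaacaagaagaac

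The last set shows wide peaks in which every 32-base word had a single place in the assembly. In the Lsp1 line the capitals mark a GA repeat. In the Myl7, Myocd and Gata5 lines, each a whole peak, they mark AGATAA, a core recognised by GATA factors, and AAGTG, a core recognised by NKX2 factors, on either strand. The 3 AAGTG matches of the Lsp1 line are not marked. In the Arid1b line, the middle of a peak over an annotated transcript start inside that gene, the capitals mark the 25 CpG dinucleotides.
Lsp1 flank, chr7:142459555-142459685: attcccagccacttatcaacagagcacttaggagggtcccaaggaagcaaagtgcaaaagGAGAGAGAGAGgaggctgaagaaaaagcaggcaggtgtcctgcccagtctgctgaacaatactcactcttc
Myl7 flank, chr11:5893097-5893392: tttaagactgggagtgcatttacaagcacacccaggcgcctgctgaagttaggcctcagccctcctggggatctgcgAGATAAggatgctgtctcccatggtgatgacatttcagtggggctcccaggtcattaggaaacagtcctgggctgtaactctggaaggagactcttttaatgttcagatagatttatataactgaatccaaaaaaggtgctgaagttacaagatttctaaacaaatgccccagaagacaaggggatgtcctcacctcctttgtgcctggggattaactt
Myocd, chr11:65205329-65205578: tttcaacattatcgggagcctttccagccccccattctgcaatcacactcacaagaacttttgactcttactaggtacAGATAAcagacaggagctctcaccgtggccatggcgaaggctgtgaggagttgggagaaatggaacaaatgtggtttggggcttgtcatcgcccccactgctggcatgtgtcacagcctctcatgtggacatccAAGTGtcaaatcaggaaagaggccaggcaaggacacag
Gata5 flank, chr2:180322973-180323267: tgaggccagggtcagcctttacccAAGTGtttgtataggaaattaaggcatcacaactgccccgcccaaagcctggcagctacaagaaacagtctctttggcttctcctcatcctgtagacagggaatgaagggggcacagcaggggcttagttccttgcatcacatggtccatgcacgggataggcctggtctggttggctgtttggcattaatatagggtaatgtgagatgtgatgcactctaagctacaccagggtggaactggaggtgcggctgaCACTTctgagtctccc
Arid1b start, chr17:4994954-4995111: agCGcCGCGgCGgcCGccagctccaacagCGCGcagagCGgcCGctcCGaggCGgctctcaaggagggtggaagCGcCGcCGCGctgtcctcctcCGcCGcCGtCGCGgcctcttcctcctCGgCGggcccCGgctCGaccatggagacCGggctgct

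Most wide peaks were only moderately wider than the threshold. Their median width was 310.5 bases (95% order-statistic interval 303 to 317), with quartiles at 276 and 367 bases. There were 325 of under 300 bases, 278 of 300 to under 400 and 143 of 400 or more, and 3 reached 1000 bases. The whole list had a median of 185 bases and a narrowest peak of 158. At the threshold the counts ran on evenly, with 11 peaks of 248 bases, 6 of 249, 10 of 250 and 7 of 251. The wide peaks covered 263 kb, which was 19.5% of all bases in peaks. Since width chose these regions, it is described and not tested.

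The widest peak, chr17:39843006-39848811, spanned 5806 bases. It overlapped the gene model Gm26917, with a midpoint 835 bases from an annotated transcript start of that model. Its GC content was 65.0%, with 10.2 CpG per 100 bases. In the assembly 14.5% of its words had a second place, and copies that the assembly lacks were not counted. An 854-base intergenic peak, chr6:3200787-3201640, shared enough sequence to group with it, and 59.7% of its words were multi-copy. The second widest, chr10:5081598-5083173, spanned 1576 bases of intron 127 of 145 of Syne1, which encodes nesprin-1, a protein that links the nucleus to the cytoskeleton. The third, chr5:16376973-16378073, spanned 1101 bases and lay 2.46 kb from Cacna2d1, an auxiliary subunit of voltage-gated calcium channels.

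Other peaks of over 800 bases lay in different settings. Peaks of 855 bases in intron 2 of 27 of Ankrd44 (chr1:54820746-54821600) and of 818 bases in intron 4 of 19 of Cul5 (chr9:53649561-53650378) were arrays of 28-base and 37-base units. Ankrd44 encodes an ankyrin repeat protein and Cul5 the scaffold of a ubiquitin ligase. A peak of 867 bases, chr1:133594531-133595397, lay 8.47 kb from Snrpe, a spliceosome component, and its central window repeated a unit of 51 bases. A peak of 856 bases at the start of chromosome 9, chr9:3034387-3035242, repeated a unit of 234 bases. A peak of 822 bases, chr7:73584289-73585110, was mostly single-copy, with 10.9% of words multi-copy, and carried runs of AG and AC repeats.

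To compare sequence without width entering, each peak was read over a central window as wide as the narrowest peak, 158 bases. Each 32-base word of the window was counted over both strands of the 21 placed chromosomes. A word was multi-copy when it was present at 2 or more places. Such words made up 50% or more of the window in 633 of 746 wide peaks (84.9%) and in 2997 of 5878 narrower peaks (51.0%). The difference was 33.9 percentage points (95% Newcombe interval 30.8 to 36.6). With the threshold lowered to 220 bases, this held for 901 of 1047 wider peaks and 2729 of 5577 others. The difference was then 37.1 points (34.5 to 39.5). It did not shrink, so the trait was not limited to the peaks called wide and also covered peaks just narrower. No multi-copy word was found in 10.6% of wide and 23.2% of narrower peaks. The median copy number of a peak's words was 49 in wide peaks (interval 37 to 83) and 2 in narrower peaks (interval 1 to 3).

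The excess was not spread evenly over copy numbers. Peaks whose median word had 10 to 99 copies made up 27.2% of wide and 9.83% of narrower peaks, a difference of 17.4 points (14.2 to 20.8). At 100 to under 1000 copies the shares were 13.3% and 12.2%, with an interval that included 0 (-1.32 to 3.84). At 1000 copies or more they were 32.2% and 21.3%. Read the other way, 26.0% of the 781 peaks at 10 to 99 copies were wide, against 3.77% of the 2994 peaks whose median word had 1 place.

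**Figure D1:**
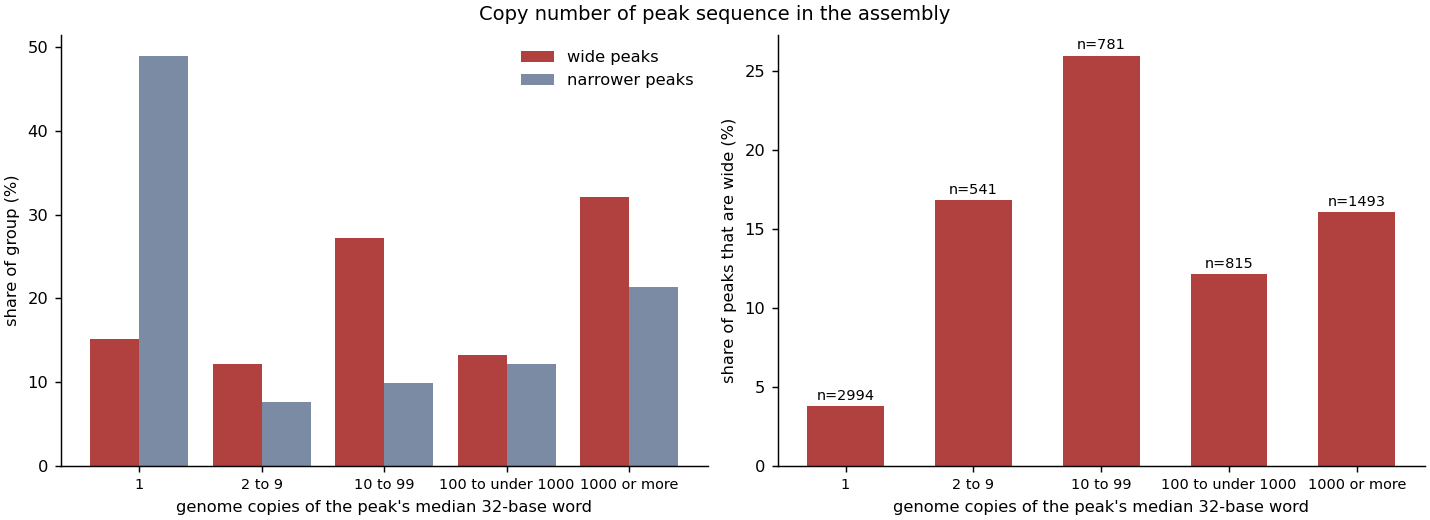
Left, the share of wide (red) and narrower (grey) peaks, in percent, by the number of genome copies of the peak's median 32-base word in the central window. Right, the share of the peaks in each copy class that were wide, with the class size above each bar. The class of 10 to 99 copies has the highest share of wide peaks, 26.0%, and the single-copy class the lowest, 3.77%.

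Many of the multi-copy wide peaks lay inside a tandem array. A peak was called an array when 50% or more of its central words had another copy within 5 kb of the midpoint and the commonest spacing between copies of a 16-base word, taken as the unit, was 7 to 400 bases. This held for 182 wide peaks (24.4%) and 261 narrower peaks (4.44%), a difference of 20.0 points (17.0 to 23.2). Of all 443 array peaks, 41.1% were wide, against 11.3% of the whole list. Units of 20 to 60 bases made up most of the difference, with 134 wide peaks (18%) and 152 narrower peaks (2.59%). This definition was chosen after the data were seen.

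The array share was higher in each wider bin of the wide peaks. It was between 3.47% and 7.80% in the 4 narrower width bins, 16% at 250 to under 300 bases, 25.9% at 300 to under 400 and 40.6% at 400 or more. Arrays with a unit of 20 to 60 bases reached 29.4% of the widest bin. The share of multi-copy peaks, by contrast, was nearly flat among the wide bins, at 85.8%, 83.1% and 86.0%. Dispersed multi-copy sequence, with multi-copy words but no local copies, accordingly went from 63.1% at 250 to under 300 bases to 36.4% at 400 or more. The bins are a description without a test, and they do not place a change at 250 bases. At a threshold of 220 bases, arrays were 220 of 1047 wider peaks and 223 of 5577 others, 17.0 points apart (14.6 to 19.6).

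**Figure D2:**
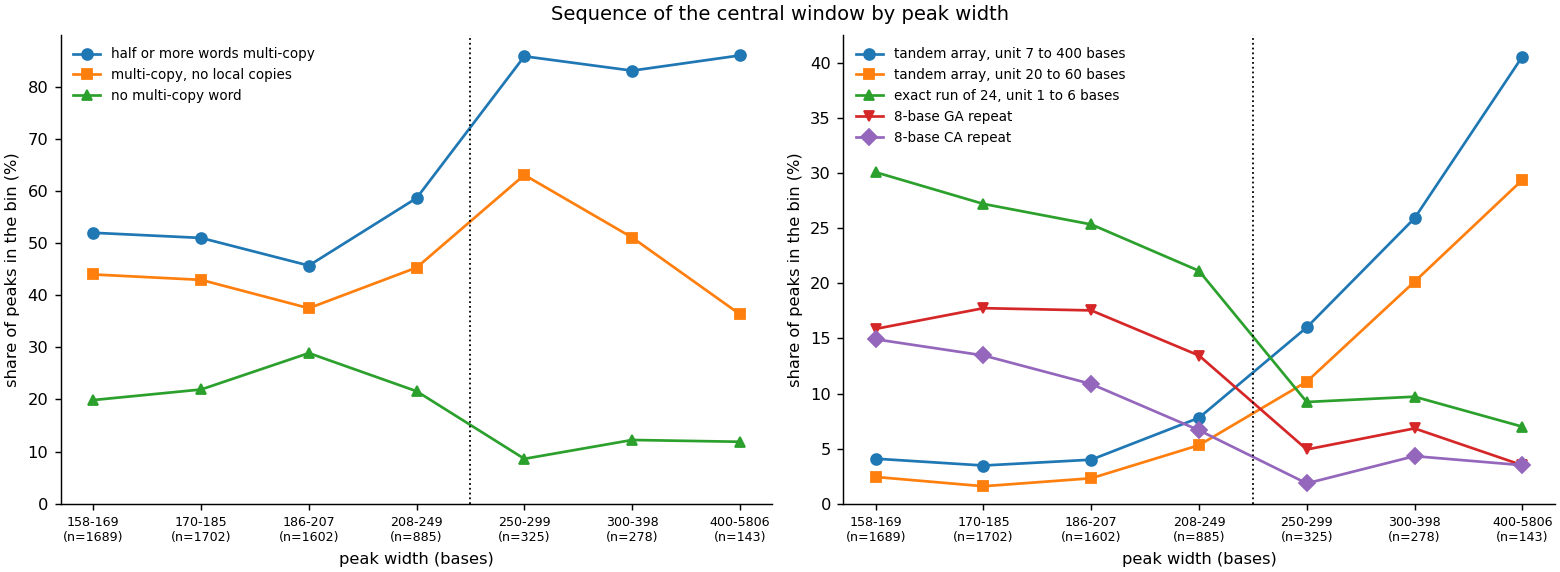
Share of peaks in percent, by width bin in bases with the bin size below, for measures of copy number (left) and of tandem and dinucleotide repeats (right) in the central window. The dotted line marks the threshold of 250 bases. The array share climbs from 7.80% just under the threshold to 40.6% in the widest bin, while short-unit repeats lie lower on the wide side.

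The arrays of wide peaks were mostly of under 1000 bases. Their units had a median of 36.5 bases with quartiles at 27 and 49. By unit, 21 wide peaks had 7 to 19 bases, 81 had 20 to 39, 53 had 40 to 60, 11 had 61 to 150 and 16 had more. The array around the peak had a median length of 568.5 bases, about 15.2 units, and in 148 of 182 it was longer than the peak. In 4 of the 182 no array length was found, and they were kept in the median as 0. The 182 array peaks lay on 20 chromosomes. Within these 182 peaks, width varied little with array length (Spearman's rho 0.17 across peaks) or with unit length (0.15), values given as a description because peaks of 1 library are not independent samples.

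**Figure D3:**
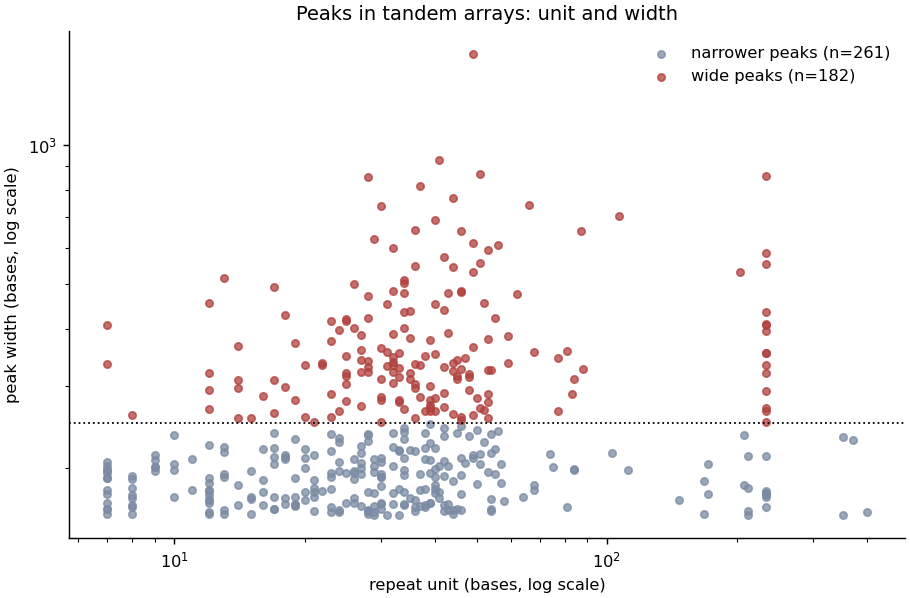
Each point is a peak in a tandem array, by repeat unit and by peak width, both in bases on log scales. Wide peaks (red, 182) and narrower peaks (grey, 261) are separated by the dotted line at 250 bases. Wide array peaks gather at units of 20 to 60 bases, with a separate column at 234 bases.

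Much of this array sequence was not soft-masked. The reference marks known repeats as soft-masked, and 107 of the 182 wide array peaks had no soft-masked base in the central window. Peaks with multi-copy words but under 50% of bases soft-masked made up 145 wide peaks (19.4%) and 222 narrower peaks (3.78%), a difference of 15.7 points (12.9 to 18.7). Of those 145, 114 were arrays. The Ankrd44, Cul5 and Snrpe-side arrays were all without a soft-masked base over the whole peak.

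Array peaks were placed in genes more often than other wide peaks. Their midpoints lay in introns in 101 of 182 cases (55.5%), against 181 of 564 (32.1%) of the wide peaks outside arrays, a difference of 23.4 points (15.1 to 31.4). Besides Syne1, Ankrd44 and Cul5, arrays lay within 1 kb of annotated starts of Eif3b (742 bases, unit 66), a translation initiation factor subunit, of Cpa6 (625 bases, unit 29), a carboxypeptidase, and of Ptprs (429 bases, unit 18), a receptor tyrosine phosphatase. The midpoints of these peaks also lay in intron 13 of 18 of Eif3b, intron 5 of 10 of Cpa6 and intron 18 of 32 of Ptprs. Fam91a1 held 3 wide peaks of a 32-base unit, and Dennd2c 2 of a 19-base unit. Syne1 held a second peak of the same 49-base unit, of 532 bases, at chr10:5080825-5081356.

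The start of chromosome 9 was the densest cluster. Between 3000342 and 3038173 it held 30 peaks, of which 17 were wide, from 251 to 856 bases, and 15 of these repeated the 234-base unit shown above. Their median GC content was 35.4%. The 3 windows of 10 kb with the most wide peaks all lay there, with 6, 5 and 4. Next came 3 wide peaks of a 53-base unit at chr11:106945793-106948137 and the 3 in Fam91a1. A peak of 713 bases on chromosome 2, chr2:98666582-98667294, inside the predicted gene Gm10800, fell in the same sequence group of 21 wide peaks on 3 chromosomes.

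Multi-copy sequence without local copies made up the larger part of the multi-copy wide peaks. It was called in 399 wide peaks (53.5%) and 2476 narrower peaks (42.1%), a difference of 11.4 points (7.56 to 15.1). At a threshold of 220 bases the difference was 17.2 points (13.9 to 20.4). The class rests on copy counts alone, so it is not limited to interspersed elements. Wide peaks were then grouped where they shared 30% or more of their 16-base words. This gave 343 groups, 296 of them single peaks. The largest held 204 wide peaks on 21 chromosomes, fully soft-masked at the median, with 3302 copies of the median word. Its most shared word, shown above, was in 63 members, in 157 narrower peaks and at 30919 places in the assembly. The second held 58, with a median GC content of 38.4% and 3198 copies. The 2 groups together made up 262 wide peaks (35.1%). With 1 wide peak kept per group and all narrower peaks left in, the difference in dispersed sequence turned to -23.2 points (-27.2 to -18.5), and that in arrays was 39 points (33.8 to 44.3). This step left 65 of the 399 dispersed wide peaks and all 2476 narrower ones. Shared words defined the groups, so it lowers the dispersed share on the wide side by construction, and no conclusion is drawn from it.

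Smaller groups mixed other types. Psmd5, a proteasome assembly factor, held a 609-base peak in intron 5 of 9 that belonged to a group of 13 with a GC content of 59.4%, and it carried a 6-base tandem unit. A 421-base peak at an annotated start of Plcb1, a phospholipase, belonged to a group of 11. The peak in intron 2 of 15 of Epha5, an Eph receptor tyrosine kinase, was 410 bases wide and belonged to the largest group, with 89.4% of its words multi-copy.

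Short-unit repeats as a whole went the other way. GAGAGAGA or its complement was in the central window of 40 wide peaks (5.36%) and 970 narrower peaks (16.5%), a difference of -11.1 points (-12.8 to -9.06). CACACACA or its complement was in 3.08% and 12.1%, a difference of -9.06 points (-10.4 to -7.36). With the threshold lowered to 220 bases, the GAGAGAGA difference was -11.8 points (-13.3 to -9.95). That of CACACACA was then -9.93 points (-11.2 to -8.47). Neither difference shrank, so the low shares were not limited to the peaks called wide and also covered peaks just narrower. Exact runs of 24 bases or more with a unit of 1 to 6 bases were in 8.98% and 26.6%. For ATATATAT the shares were 1.61% and 2.5%, and for CGCGCGCG 0 of 746, which allows a share of up to 0.402% at 3 counts, and 0.272%. The intervals of these last differences included 0.

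The repeats that wide peaks did hold were varied. Over whole peaks, runs of AG were in 19 wide peaks (2.55%, against 10.96% of narrower peaks) and of AGAGGC in 13 (1.74% against 1.28%). Runs of AC were in 11 (1.47% against 7.76%) and of AAGG in 7 (0.938% against 2.297%). AAAG, AAG and AGGC were in 5 each (0.67%), against 2.98%, 3.49% and 0.187% of narrower peaks. Of these units, AGAGGC and AGGC had the higher share in wide peaks and the others the lower. These differences were not tested, and a whole wide peak holds more sequence than a whole narrower one. The widest examples were the 822-base chromosome 7 peak for AG and AC, the Psmd5 peak for AGAGGC and a 462-base peak in intron 5 of 5 of Runx2, a bone transcription factor, for AAGG and AAAG. An intergenic peak of 526 bases 13.7 kb from Cyp8b1, a bile acid enzyme, repeated AGGC and was 74.9% GC. The Cacna2d1 peak was 25.0% GC and repeated AGAT through an array of 1304 bases.

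**Figure D4:**
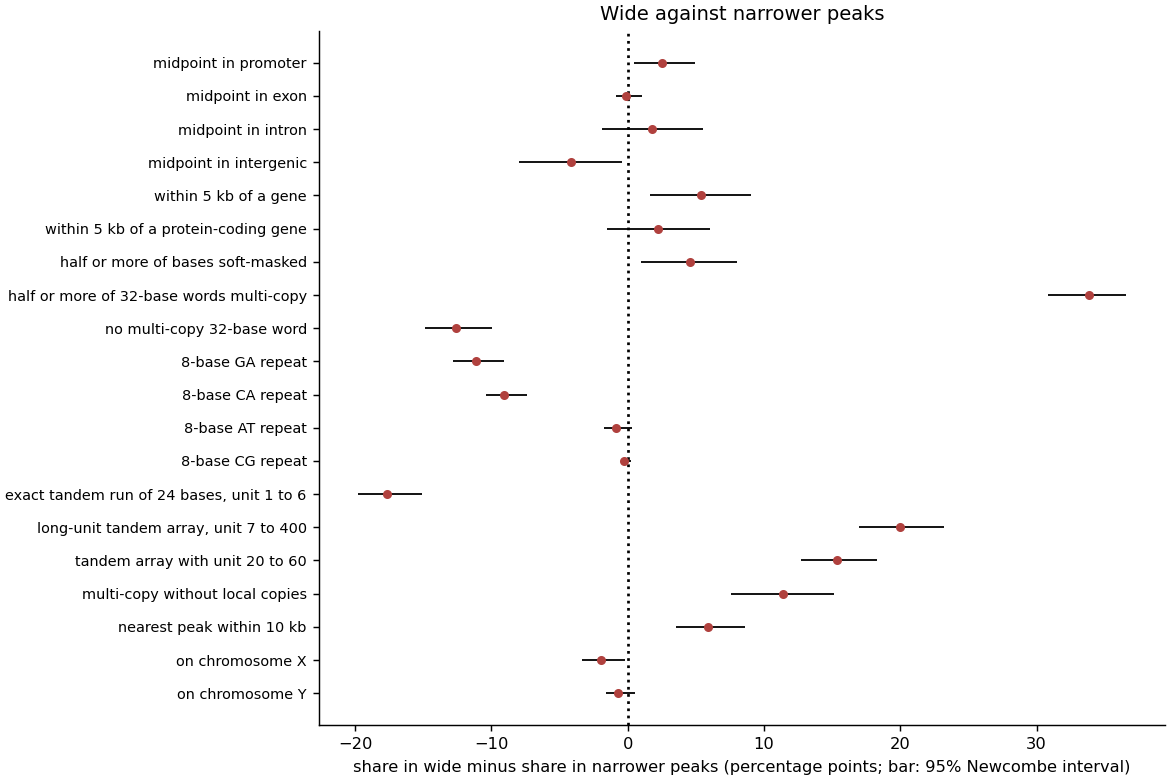
Share of wide peaks minus share of narrower peaks, in percentage points, for the position and sequence measures drawn, with 95% Newcombe intervals as bars and 0 dotted. Among the measures drawn, the largest positive value is for multi-copy words, 33.9 points, and the largest negative value is for short-unit tandem runs, -17.6 points.

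Wide peaks were richer in GC at the centre. The median GC content of the central window was 48.1% (interval 47.5 to 48.1) in wide peaks and 44.9% (44.9 to 45.6) in narrower peaks, beside 41.7% over the genome. Peaks with 50% or more of bases soft-masked made up 68.2% and 63.6%, a difference of 4.59 points (0.949 to 8.06), which turned to -2.06 points (-6.93 to 2.60) at a threshold of 300 bases. Around the midpoint the mean GC of wide peaks fell from 47.9% to 42.5% at the edge of a 1-kb flank, and that of narrower peaks from 44.9% to 42.2%. Soft-masking stayed higher in the flanks of wide peaks, at 51.4% against 42.4%.

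**Figure D5:**
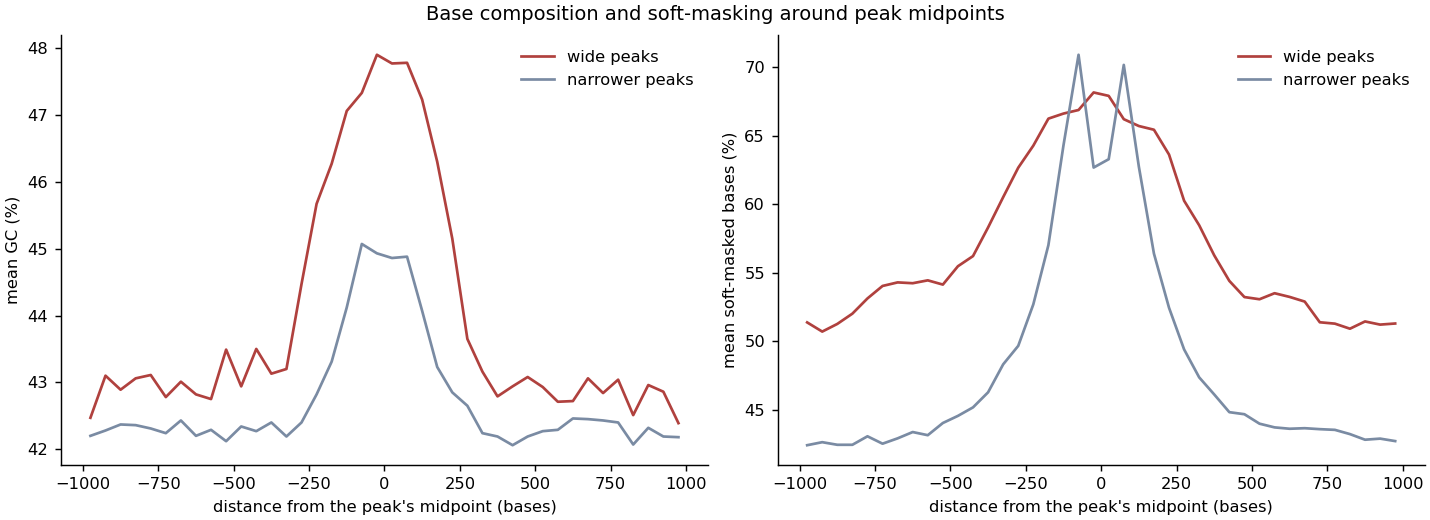
Mean GC (left) and mean share of soft-masked bases (right), in percent per 50-base bin, by distance in bases from the peak's midpoint, for wide (red) and narrower (grey) peaks. Wide peaks are higher in GC at the centre, 47.9% against 44.9%, and more soft-masked 1 kb away, 51.4% against 42.4%, and the narrower peaks show a dip in soft-masking at the midpoint.

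By position, wide and narrower peaks were more alike. Of the wide peaks, 380 (50.9%) had an intergenic midpoint, 282 (37.8%) an intronic one, 73 (9.79%) lay within 1 kb of a transcript start and 11 (1.47%) were exonic. Narrower peaks were intergenic in 55.1%, intronic in 36.0%, at starts in 7.25% and exonic in 1.60%. The share at starts was higher by 2.54 points (0.488 to 4.97). At the start of chromosome 9, 15 wide peaks lay at starts of predicted genes, and without that region the shares were 7.96% and 7.11%, a difference of 0.846 points (-1.03 to 3.13). With 1 wide peak per sequence group and all narrower peaks kept, it was 4.41 points (1.36 to 8.30), and with RefSeq genes -0.373 points (-1.93 to 1.59). The intergenic difference, -4.18 points (-7.98 to -0.389), also included 0 without it, at -3.12 points (-6.96 to 0.708).

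Another peak lay within 10 kb of 99 wide peaks (13.3%) and of 7.35% of narrower peaks. Of the 99, 51 had another wide peak within that distance. The difference was 5.92 points (3.57 to 8.62), and 1.18 points (-0.595 to 3.35) once peaks within 1 kb were merged. Wide peaks were on chromosome X in 4.29% and on Y in 1.74%, against 6.26% and 2.47% of narrower peaks, with an interval that excluded 0 for X alone.

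A small set of wide peaks held no multi-copy word anywhere. There were 64 of them, with a median width of 325 bases and none more than 34.5% soft-masked. Their midpoints were at starts in 16, in introns in 27, in exons in 2 and intergenic in 19. Among the 900 narrower peaks without a multi-copy word, 15.8% were at starts against 25.0% here, a difference of 9.22 points whose interval just included 0 (-0.111 to 21.2). With the central window alone free of multi-copy words, 19 of 79 wide peaks and 175 of 1363 narrower peaks were at starts, a difference of 11.2 points (2.92 to 21.8). The median GC content of the 64 wide peaks was 50.3% (48.7 to 51.9), above the 46.2% (45.6 to 46.8) of the 900 narrower peaks. The nearest transcript start was 3677.5 bases away at the median (1620 to 9737) for the 64, against 10274 bases (8976 to 11978) for the 900.

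The widest of these 64 was at the start of the noncoding gene E130101E03Rik, with 696 bases. The next, chr7:142459187-142459848, spanned 662 bases 0.96 kb from Lsp1, a leukocyte actin-binding protein, in the region the study followed up as an enhancer of the troponin genes Tnni2 and Tnnt3. Its GC content was 50.3%, and it carried the GA repeat shown above. Then came a 648-base peak in intron 1 of 16 of Unc5b, a netrin receptor, and peaks in introns of Lrrfip1 (541 bases), Pirt (523 bases), Fstl1 (457 bases), which encodes a secreted glycoprotein, Kazn (428 bases) and Vgll4 (425 bases), a cofactor of TEAD transcription factors. Atp6v0a1, a subunit of the vacuolar proton pump, had one of 457 bases in intron 1 of 15, within 1 kb of an annotated start. The Unc5b and Kazn peaks also lay within 1 kb of annotated starts, of Gm19972 and Gm13062, and are counted above at starts.

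Arid1b, a subunit of the BAF chromatin remodelling complex, held 2 wide peaks of different kinds. One, chr17:4994806-4995259, lay over an annotated transcript start, 41 bases from the peak's midpoint. That start lies inside the gene model, which begins at 4994332. The peak had a GC content of 73.3% and 11 CpG per 100 bases. The other was the 46-base array in an intron shown above. The start peak had no multi-copy word, and the array peak was made of them.

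Other single-copy wide peaks, picked out after their values were seen, lay at or near genes of heart muscle and its signalling. Tead1, a transcription factor partner of Vgll4, had 2, of 313 and 252 bases, in intron 1 and at a start. Mylk3, the cardiac myosin light chain kinase, had one of 336 bases at a start, and Lmna, which encodes the A-type lamins, one of 302 bases. Ski, a corepressor of TGF-beta signalling, had one of 336 bases with a GC content of 73.8%. A peak of 392 bases lay 10.1 kb from Myh7, the slow cardiac myosin heavy chain. Because they were picked, these names carry no weight as a group.

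Over all annotated genes, 535 of 55413 GENCODE genes (0.965%) had a wide peak in the body or within 5 kb, and 327 of 21938 protein-coding genes (1.49%) did. Of 105 genes on 7 lists chosen for this tissue and study, 10 had one (9.52%), and 28 had a narrower peak (26.7%) against 10.1% of protein-coding genes. The list genes spanned a median of 29.6 kb, against 17.4 kb for protein-coding genes and 97.7 kb for those with a wide peak, and the part of gene length in these shares was not tested. The lists were drawn up with results of these data known, so the shares are a description.

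A single-copy wide peak was in or near 7 of the 105 list genes (6.67%) and 0.223% of protein-coding genes. Among 22 cardiac transcription factors these were Gata5, with a peak of 295 bases 1.87 kb from the gene, and Myocd, a coactivator of serum response factor, with one of 250 bases 13 bases from an annotated internal start in intron 5 of 13. Both peaks carried 2 of the motif matches marked in capitals above. Such matches were common: in the central window alone, AGATAA was in 7.58% and AAGTG in 28.1% of all peaks. Among 25 sarcomere and Z-disc genes they were Myl7, the atrial regulatory light chain, with one of 296 bases 3.24 kb away and 1 AGATAA match, and Ldb3, a Z-disc protein, with one of 290 bases in intron 7 of 13.

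Among 20 ion channel and calcium-handling genes, Kcnh2, a potassium channel of repolarisation, had one of 251 bases in intron 1 of 14, and Camk2d, a calcium-dependent kinase, one of 319 bases in intron 2 of 18. Cacna2d1 was the third, with the AGAT repeat. Lsp1 was the only one of the 13 study genes, Epha5 the only one of 14 Eph receptors and Syne1 the only one of 3 nesprin genes with a wide peak. None of the 10 genes of the HIRA complex and histone H3.3 had a wide peak, and Ubn1 had a narrower one. Several of these peaks sat close to the threshold: at 300 bases or more, only Lsp1, Camk2d, Epha5, Syne1 and Cacna2d1 of the 10 would be counted.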

How the data were processed

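Hearts from wild type CD1 embryos were pooled for 1 HIRA ChIP library and 1 input library. The authors aligned reads with bowtie2 to mm10 and called peaks with the MACS algorithm in Strand NGS, after removing poor-quality and duplicate reads. The deposited file gives chromosome, start and end of 6624 peaks, in other words positions and no score, count or signal, so depth per peak and enrichment were not analysed here. Its header gives a p-value cutoff of 0.0010, a fragment length of 200 bases and enrichment limits of 5 and 50. The study's methods state a stricter p cutoff, and which of them made the list could not be settled from the file. How reads with several alignments were handled is not given in the sources used here.

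Peaks of 250 bases or more were compared with all others using GRCm38.p6 sequence and GENCODE M21 genes. The members, gene lists and measures were chosen with earlier results of these data known. Sequence was read in a 158-base central window. Words of 32 bases were counted over 21 placed chromosomes. A promoter midpoint lay within 1 kb of a transcript start. Array length covered windows of 100 bases with 70% of bases equal to the base 1 unit away. Shares were compared by the 95% Newcombe interval and medians by order-statistic intervals, with no p-value. The code was tested on simulated sequence, where 185 of 200 planted arrays with 1% of bases redrawn were called and the unit was right in all 200. Exact word matching therefore misses some diverged arrays.

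Named peaks, all off chromosome 18, were the 10 widest, the 10 widest without a multi-copy word, the 10 widest within 1 kb of a protein-coding start, those at list genes, the 5 densest 10-kb windows, and examples of the 5 largest sequence groups and of each short repeat type with 5 or more wide peaks. A few single-copy peaks at heart genes were named after their values were seen, and are marked so. The intronic Arid1b array and the Dennd2c peaks were also named outside these rules. One of the 10 widest is not reported here. Alternatives changed the threshold, the comparison set, the chromosomes, merging, window, word length, repeat length and gene annotation. Python 3 with numpy, pandas and scipy was used.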

Additional observations from a re-analysis of the deposited data

How the results depend on the processing

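Differences are wide minus narrower peaks, in percentage points. No paired analysis was possible because the ChIP was a single library. No alternative run turned or ended the differences in multi-copy peaks, long-unit arrays, GAGAGAGA, CACACACA or short-unit runs. The intervals of the GC medians also stayed apart. A separate comparison kept only peaks without a multi-copy word. There GAGAGAGA was in 2 of 64 wide and 68 of 900 narrower peaks. The difference was -4.43 points, with an interval that included 0 (-7.39 to 3.299). CACACACA stayed lower there, at -9.55 points (-12.1 to -2.52). Of 210 differences of shares, 176 kept their direction and whether the interval excluded 0. Of 17 differences of medians, 16 kept their direction, and of 7 gene counts, 4 stayed within 1.5 times. At 300 bases or more, mostly soft-masked peaks became -2.06, multi-copy without local copies 2.86, and genes with a wide peak 327. At 220 bases or more, introns became -0.266, intergenic -1.84, within 5 kb of a gene 1.69, of a protein-coding gene -0.0777, and chromosome X -0.0255. Against peaks at or under the median width, exons became 0.147 and mostly soft-masked peaks 3.38. With peaks within 1 kb merged, promoters became 0.996, intergenic -2.96, neighbours within 10 kb 1.18 and chromosome X -1.16.

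With 1 wide peak per sequence group and all narrower peaks kept, exons became 1.02, introns 8.57, within 5 kb of a protein-coding gene 12.1, mostly soft-masked peaks -24.3, no multi-copy word -0.156, ATATATAT -2.21, multi-copy without local copies -23.2, unique class -0.796, the median soft-masked share -66.5 and genes 310. Grouping thinned repeated sequence among wide peaks alone, so the repeat values of that run follow partly from its construction. Without the first 3.1 Mb of chromosome 9, chosen after seeing the data, promoters became 0.846 and intergenic -3.12. Over the whole peak, mostly soft-masked peaks became 2.18, ATATATAT 0.391 and CGCGCGCG 0.0789, and ATATATAT in 12-base form -0.544. With RefSeq genes, promoters became -0.373, exons 0.00529, intergenic -3.32 and within 5 kb of a gene 3.48. With protein-coding genes alone, intergenic became -3.37 and genes 327. Among peaks free of multi-copy words, introns became -3.94 and intergenic -6.65. Except for fewer members or genes, the cause was not tested.

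Copies were counted in the assembly, not in CD1 embryos. The list has no score, so width could not be set beside enrichment. Width bins of the wide peaks hold 143 to 325 peaks.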

Other observations

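A panel of 8 short motifs was looked for on either strand in the central window of the 64 wide peaks without a multi-copy word, against the 900 narrower peaks without one. For 5 cores of heart transcription factors the interval of the difference included 0. AGATAA was in 17.2% and 10.8%, a difference of 6.41 points (-1.22 to 17.6). AAGTG was in 25.0% and 32.3%, AGGTGT, a T-box core, in 4.69% and 6.78%, GGAATG, a TEAD core, in 15.6% and 11.7%, and CAGCTG, an E-box, in 15.6% and 11.1%. CATCTG, another E-box, was in 6.25% and 11.1%, also with an interval over 0. TTGGCA, part of the NFI site, was in 20.3% and 9.11%, a difference of 11.2 points (2.90 to 22.7), and GGGCGG, an SP core, in 9.38% and 4.00% (0.151 to 15.0). These 2 of 8 intervals were not adjusted for the number of motifs. Over all 6624 peaks TTGGCA was in 5.68% and GGGCGG in 1.59%. A match is a run of letters and not a bound site.

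Where wide peaks did hold a GAGAGAGA run, it lay nearer the middle. Over whole peaks, the nearest run was at a median of 25.0% of the way from midpoint to edge in 62 wide peaks, and 55.1% in 1109 narrower peaks. For CACACACA the values were 18.5% in 35 and 66.5% in 868. A wider peak reaches further from its midpoint, so the same offset in bases is a smaller share of it.

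Wide peaks lay within 100 kb of an assembly gap of 1 kb or more in 5.36%, against 2.33% of narrower peaks. Without the first 3.1 Mb of chromosome 9 the shares were 3.16% and 2.11%, a difference of 1.04 points (-0.0771 to 2.61). Beside 0.965% of all GENCODE genes, a wide peak lay in or within 5 kb of 49 of 5854 lincRNA genes (0.837%), 21 of 2202 miRNA genes (0.954%), 10 of 1383 snRNA genes (0.723%), 4 of 1507 snoRNA genes (0.265%) and 3 of 354 rRNA genes (0.847%). Processed pseudogenes had 35 of 9940 (0.352%). The shares with a narrower peak were 6.20%, 2.41%, 2.17%, 2.39%, 6.50% and 2.46% for lincRNA, miRNA, snRNA, snoRNA, rRNA and processed pseudogenes.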
